A study of Mus musculus with 52 samples.

Results

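Isl1, Isl2, Mnx1, Lhx3 and Lhx4 are the homeobox transcription factors that set the identity of spinal motor neurons. They were chosen as a family by symbol, with earlier results of these data known. Of the 23697 genes listed in each of 6 tables of mouse spinal cord RNA-seq values, 5 carry these symbols. Each symbol was found in all 6 tables. The experiment compared mice with a mutant human SOD1, a model of amyotrophic lateral sclerosis, with non-transgenic (Non-Tg) mice, called controls here. Polyadenylated RNA on EGFP-tagged RPL10A ribosomes was purified from 1 cell type of bacTRAP reporter spinal cord. Whole spinal cord RNA was profiled beside it, and 52 libraries fall into 13 groups. The title of the series names a cascade of damage from motor neurons to glia.

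The motor neuron groups were SOD1 G37R (4 libraries) and Non-Tg (4), and the astrocyte groups SOD1 G37R (4) and Non-Tg (6), all at disease onset and all male. The onset oligodendrocyte groups were SOD1 G37R (4) and Non-Tg (5) at 8 months, male. The early symptomatic oligodendrocyte groups were SOD1 G37R (3), SOD1 G85R (3) and Non-Tg (5) at 11 months, of both sexes. Whole spinal cord was profiled in SOD1 G37R (4) and Non-Tg (4) males at onset, 8 months, and in SOD1 G37R (3) and Non-Tg (3) mice of both sexes at the early symptomatic stage, 11 months. The labels name no age for the motor neuron and astrocyte groups, and the promoters that drive the ribosomal tag and the mutant SOD1 are not given in the sources used here. All groups come from tagged reporter mice by the design text, controls included, and the same purification text stands on every library, although the source label of the whole spinal cord libraries names no cell type. The design text calls the libraries biological replicates without tying each to an animal, so p-values measure the spread between libraries. Levels are in FPKM-equivalents, a length-scaled unit explained with the processing, and a log2 change is a difference of log2(level + 1).

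LIM homeodomain proteins carry a homeodomain that binds TAAT-centred DNA and LIM domains that bind cofactors. In newborn motor neurons Isl1 and Lhx3 are joined by the LIM cofactor Ldb1 into a complex that switches on motor neuron genes, cholinergic ones among them, and Mnx1, a homeobox factor without LIM domains, holds interneuron programmes off. Lhx3 and Lhx4 also act in V2 interneurons, and Isl1 stays on in many adult cholinergic neurons.

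The promoters of Isl1, which did not pass the test in G37R motor neurons, and of Isl2, Mnx1 and Lhx4, which fell there, are shown so that the DNA just before their starts can be compared. Each is the 250 bases before the start of the RefSeq gene on GRCm38.p6, 5′ to 3′ on the gene's strand. Capitals mark matches on either strand to TAAT, the core bound by homeodomains, to CCAAT and to TGACG, the 5-base core of sites for CREB and ATF factors. In Mnx1 a TAAT match overlaps a CCAAT match read on the other strand, and in Isl2 the last TGACG lies within the palindrome TGACGTCA.
Isl1, chr13:116309689-116309938, minus strand: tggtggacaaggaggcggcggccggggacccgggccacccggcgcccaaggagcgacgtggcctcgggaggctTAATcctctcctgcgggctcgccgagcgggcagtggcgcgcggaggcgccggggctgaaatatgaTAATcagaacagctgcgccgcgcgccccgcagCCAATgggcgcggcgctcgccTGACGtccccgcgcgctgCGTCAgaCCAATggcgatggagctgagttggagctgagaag
Isl2, chr9:55540899-55541148, plus strand: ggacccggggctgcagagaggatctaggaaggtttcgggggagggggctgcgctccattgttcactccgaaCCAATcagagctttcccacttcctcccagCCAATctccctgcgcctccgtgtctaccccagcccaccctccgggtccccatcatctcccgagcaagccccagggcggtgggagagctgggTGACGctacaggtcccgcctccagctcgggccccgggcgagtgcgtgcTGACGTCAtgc
Mnx1, chr5:29478471-29478720, minus strand: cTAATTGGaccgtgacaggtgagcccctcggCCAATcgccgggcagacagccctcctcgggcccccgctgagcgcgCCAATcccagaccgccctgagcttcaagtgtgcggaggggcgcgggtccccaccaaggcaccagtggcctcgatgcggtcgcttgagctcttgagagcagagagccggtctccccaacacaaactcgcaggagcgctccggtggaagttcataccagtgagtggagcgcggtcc
Lhx4, chr1:155742028-155742277, minus strand: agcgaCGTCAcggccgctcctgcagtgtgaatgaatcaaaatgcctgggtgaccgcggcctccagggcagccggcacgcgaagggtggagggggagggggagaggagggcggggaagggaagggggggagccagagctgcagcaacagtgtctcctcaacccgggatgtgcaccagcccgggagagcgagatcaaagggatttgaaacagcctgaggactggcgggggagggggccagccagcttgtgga

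Isl1 held 2 TAAT, 2 CCAAT and 2 TGACG matches. Isl2 held 0, 2 and 3 in the same order, of which the palindrome TGACGTCA gives 2, 1 on each strand. Mnx1 held 1, 3 and 0, and Lhx4 held 0, 0 and 1. RefSeq gives Lhx3 a pair of starts, which the deposited values do not separate, and its windows held 1 TAAT and 1 TGACG match at the start listed first and no match at the other. Of 32851 promoter windows of the same length, 54.9% held TAAT, 33.8% CCAAT, 17.8% TGACG and 1.55% TGACGTCA. The windows of the 5 genes were 62.0% to 71.2% G and C. A match is a description of letters and no site of binding.

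Isl1 and Isl2, and likewise Lhx3 and Lhx4, are close paralogues, so the longest stretch that each pair shares is shown because it bears on whether reads could be counted for the wrong gene. Both stretches lie in coding sequence, within the part that encodes the homeodomain, and are written on the genes' strand with GRCm38 coordinates.
Isl1 (chr13:116303236-116303258, minus strand) and Isl2 (chr9:55544147-55544169, plus strand): cggactgtgctcaacgagaagca
Lhx3 (chr2:26202375-26202394, minus strand) and Lhx4 (chr1:155705197-155705216, minus strand): gagcagctctcctccgagac

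The Isl1 and Isl2 transcripts shared at most 23 bases in a row, and those of Lhx3 and Lhx4 at most 20. In all 10 pairs of members the longest transcripts had 0 stretches of 50 bases in common, which is the length of a read. Only exact matches were searched, so reads aligned with mismatches are not covered. In the files' mm9 coordinates Isl1 lies on chromosome 13 (117088477 to 117099896), Isl2 on 9 (55388955 to 55393985), Mnx1 on 5 (29800362 to 29805010), Lhx3 on 2 (26055731 to 26062076) and Lhx4 on 1 (157548823 to 157589157). An antisense gene overlaps Isl2 (Gm17226) and Lhx3 (Gm27196) in the annotation. No source used here says that counting used strand, so reads from bases they share with Isl2 or Lhx3 may not be told apart. Only whole gene spans on GRCm38 were compared. Whether exons overlap, or whether the mm9 annotation held these antisense genes, was not checked.

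Across the whole series, Pearson's r across genes was 0.932 to 0.989 between libraries of the same group. Read counts are not given, so relative depth was inferred from the ratios of low values between libraries. By that estimate the deepest library of a table was 1.20 to 1.65 times the shallowest. The summed level of 4 motor neuron markers (Chat, Slc18a3, Slc5a7, Prph) was 2122 to 2496 in motor neuron controls, against 122 to 196 in whole spinal cord controls at 8 months. In the same groups 7 oligodendrocyte markers summed to 455 to 508, against 12920 to 15250, and 8 microglial markers to 7.27 to 11.5, against 305 to 378. The astrocyte controls held astrocyte markers at 5717 to 8243 and oligodendrocyte markers at 6221 to 8781.

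All 5 genes were highest in the motor neuron groups, by 2.45 to 15.98 times over whole spinal cord in controls. These levels are a description, since the genes were chosen for this identity and each table was normalized separately. Mnx1 and Isl2 were the most abundant of the 5 per unit of length in motor neuron controls, at 29.5 ± 1.01 and 26.9 ± 2.10 (SD, n = 4), followed by Isl1 at 17.4 ± 0.847, Lhx3 at 8.54 ± 0.507 and Lhx4 at 5.24 ± 1.001. Isl2 and Mnx1 did not separate fully in that order, since the highest Isl2 value lay above the lowest of Mnx1. The other steps of the order were larger than the spread between these libraries.

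**Figure D1:**
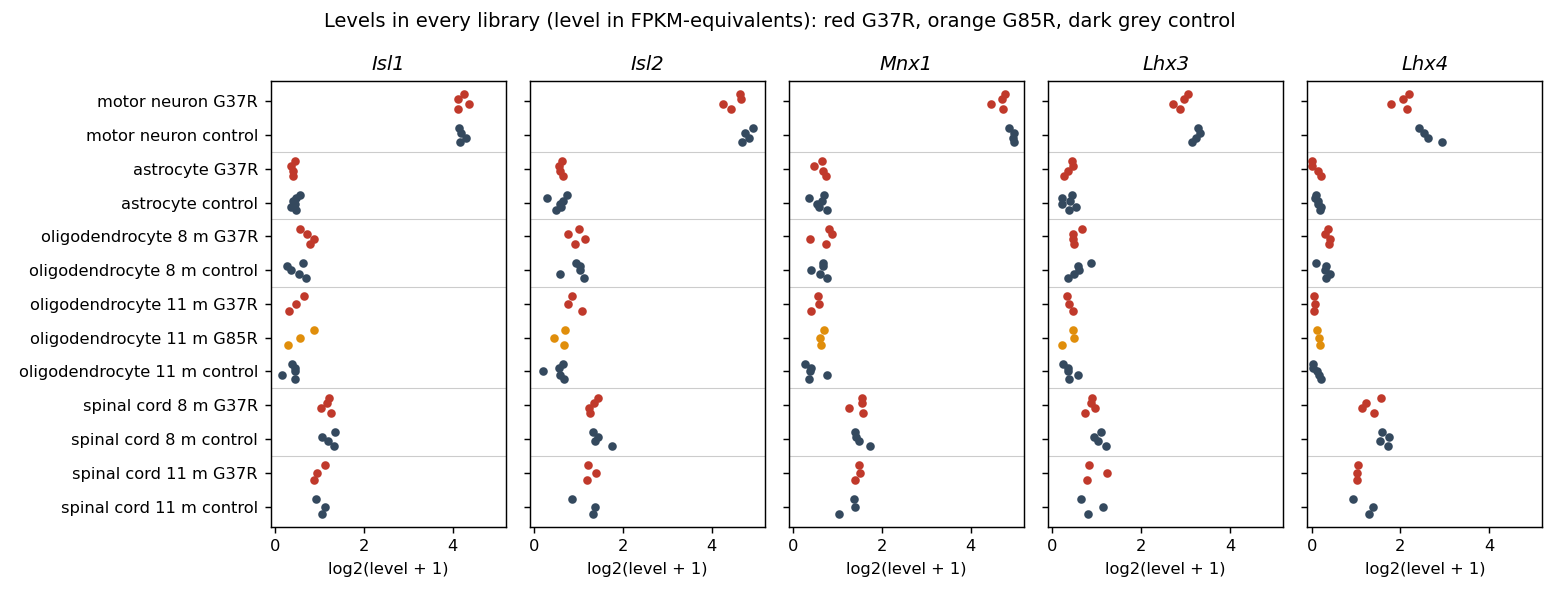
Levels of the 5 genes in every library, with log2(level + 1) on the x axis (level in FPKM-equivalents) and the 13 groups down the page, 1 point per library. By group mean, all 5 genes are highest in the 2 motor neuron groups, intermediate in whole spinal cord and lowest in astrocytes and oligodendrocytes. Single libraries of spinal cord and oligodendrocytes overlap for Isl1, Isl2 and Lhx3. The step between motor neurons and spinal cord is smallest for Lhx4.

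Isl1, the islet factor needed to make motor neurons, was at 17.7 ± 1.56 in G37R and 17.4 ± 0.847 in control motor neurons (SD, n = 4 each). In whole spinal cord it was at 1.25 ± 0.157 in G37R and 1.36 ± 0.223 in control at 8 months (n = 4 each), and at 0.978 ± 0.173 in G37R and 1.07 ± 0.147 in control at 11 months (n = 3 each). The oligodendrocyte groups lay lower, at 0.675 ± 0.148 in G37R and 0.425 ± 0.176 in control at 8 months, and at 0.399 ± 0.161 in G37R, 0.517 ± 0.311 in G85R and 0.305 ± 0.105 in control at 11 months. Astrocytes gave 0.325 ± 0.0397 in G37R and 0.372 ± 0.0655 in control. The step from spinal cord to motor neurons was larger than the spread, at 12.8 times in controls, while neighbouring spinal cord groups overlapped, as did the glial groups.

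Isl2, the second islet factor, was at 21.7 ± 2.91 in G37R and 26.9 ± 2.10 in control motor neurons. Whole spinal cord held 1.504 ± 0.162 in G37R and 1.79 ± 0.409 in control at 8 months, and 1.41 ± 0.195 in G37R and 1.29 ± 0.425 in control at 11 months. In oligodendrocytes it was at 0.946 ± 0.211 in G37R and 0.940 ± 0.263 in control at 8 months, and at 0.874 ± 0.207 in G37R, 0.529 ± 0.141 in G85R and 0.460 ± 0.182 in control at 11 months. Astrocytes had 0.524 ± 0.0353 in G37R and 0.485 ± 0.157 in control. Control motor neurons were 15.01 times as high as spinal cord at 8 months and 28.7 times as high as the highest glial control, the 8-month oligodendrocytes.

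Mnx1, the factor that keeps motor neurons apart from interneurons, was at 24.4 ± 2.37 in G37R and 29.5 ± 1.01 in control motor neurons. Spinal cord had 1.80 ± 0.268 in G37R and 1.85 ± 0.332 in control at 8 months, and 1.75 ± 0.110 in G37R and 1.41 ± 0.329 in control at 11 months. The 5 oligodendrocyte groups spanned means of 0.365 to 0.635 and the astrocyte groups 0.547 ± 0.120 in G37R and 0.512 ± 0.142 in control. Its excess in control motor neurons was the widest of the 5 genes, at 15.98 times over 8-month spinal cord and 54.8 times over the highest glial control.

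Lhx3, the partner of Isl1 in the motor neuron complex, was at 6.54 ± 0.745 in G37R and 8.54 ± 0.507 in control motor neurons. Spinal cord had 0.821 ± 0.115 in G37R and 1.10 ± 0.173 in control at 8 months, and 0.957 ± 0.352 in G37R and 0.831 ± 0.320 in control at 11 months. Glial means lay between 0.291 in control astrocytes and 0.5002 in control oligodendrocytes at 8 months. Control motor neurons were 7.77 times as high as spinal cord at 8 months.

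Lhx4, the paralogue of Lhx3, had the narrowest step, at 3.16 ± 0.489 in G37R and 5.24 ± 1.001 in control motor neurons, against 1.53 ± 0.332 in G37R and 2.14 ± 0.224 in control spinal cord at 8 months. The 11-month spinal cord held 1.04 ± 0.0115 in G37R and 1.32 ± 0.361 in control. Control spinal cord at 8 months thus held 40.9% of the control motor neuron level of Lhx4, against 12.9% for Lhx3, 7.81% for Isl1, 6.66% for Isl2 and 6.26% for Mnx1. The motor neuron markers Chat, Slc18a3, Slc5a7 and Prph stood at 14.2%, 4.41%, 16.7% and 7.41% on the same measure. Glial Lhx4 means were 0.0479 to 0.288, and it was listed at 0 in G37R astrocyte libraries 1 and 2.

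In motor neurons at onset, 4 of the 5 genes fell in G37R mice: Lhx4 to 60.3% of the control mean, Lhx3 to 76.5%, Isl2 to 80.4% and Mnx1 to 82.7%. Isl1 stood at 102% and did not pass the test. The threshold was an adjusted p of 0.05 from limma, a linear model with moderated variances; 12.9% of all 12303 genes in that test passed it, with 6.37% lower and 6.49% higher in G37R. These falls are small and the calls are fragile: 0 of the 5 passed without control library 2 or without control library 3, and 1 without G37R library 3 or without G37R library 4. The 4 genes were lower in all 17 alternative fits, which share libraries. The median log2 change was -0.31 over the 5 genes and 0.015 over all genes tested. Since the 5 genes were chosen with earlier results of these data known, their counts beside the shares of all genes are a description.

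Lhx4 was at 3.56, 3.15, 2.48 and 3.46 in the G37R motor neuron libraries, against 4.33, 4.81, 5.18 and 6.65 in the control libraries. Every G37R library lay below every control library, with G37R library 3 lowest and control library 4 highest. The log2 change was -0.58 (SE 0.12, n = 4 and 4, adjusted p = 0.0168 by limma). By size it ranked 47 among the 784 genes that fell.

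Lhx3 was at 7.36, 6.83, 5.60 and 6.37 in the G37R libraries, against 8.77, 9.09, 8.42 and 7.91 in the controls. The groups did not overlap, and G37R library 3 was again lowest. Its log2 change was -0.34 (SE 0.080, adjusted p = 0.0239), rank 274 of the 784.

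Isl2 was at 23.8, 24.1, 18.0 and 20.7 in the G37R libraries, against 29.4, 25.9, 27.8 and 24.7 in the controls. The groups did not overlap but came close, since the highest G37R value was 24.1 and the lowest control value 24.7. The log2 change of -0.31 (SE 0.092) passed narrowly, with an adjusted p of 0.0496 from limma.

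Mnx1 was at 26.4, 24.9, 21.0 and 25.3 in the G37R libraries, against 28.1, 30.2, 29.7 and 30.2 in the controls. The groups did not overlap, and G37R library 3 stood below the other G37R libraries. The log2 change was -0.27 (SE 0.070, adjusted p = 0.0331).

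Isl1 was at 18.2, 16.4, 19.6 and 16.4 in the G37R libraries, against 16.7, 17.1, 18.6 and 17.0 in the controls. The groups overlapped throughout, and G37R library 3, the lowest of all libraries for the other 4 genes, was the highest for Isl1. Its log2 change was 0.021 (SE 0.068, adjusted p = 0.860), an estimate whose sign turned in 3 of 17 alternative fits. Of the 5 genes, 4 had groups that did not overlap with G37R lower, against 10% of all genes tested.

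**Figure D2:**
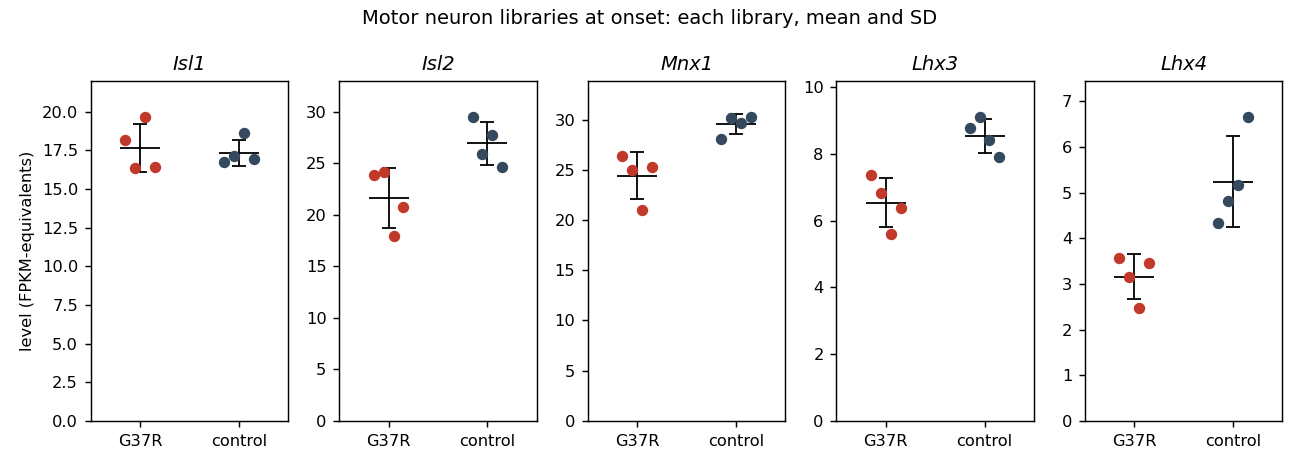
Level (FPKM-equivalents, y axis from 0) of each gene in the motor neuron libraries at onset, G37R left and control right. Points are libraries, n = 4 per group, and bars are the mean and SD. The groups do not overlap for Isl2, Mnx1, Lhx3 and Lhx4 and overlap for Isl1.

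Set against Isl1 in the same library, Lhx4 had a ratio of 0.181 ± 0.0375 in G37R and 0.302 ± 0.0607 in control motor neurons (SD, n = 4 each). The ratio of Lhx3 to Isl1 was 0.374 ± 0.0602 in G37R and 0.493 ± 0.0396 in control, and that of Mnx1 to Isl1 was 1.40 ± 0.221 in G37R and 1.70 ± 0.0856 in control. In these 3 ratios every G37R library lay below every control library. The ratio of Isl2 to Isl1 was 1.24 ± 0.235 in G37R and 1.55 ± 0.138 in control, and G37R library 2 reached into the control range. Lhx3 over Lhx4 was 2.08 ± 0.181 in G37R and 1.68 ± 0.369 in control, with overlap. No test was made of these ratios, which come from the same contrast.

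Markers of other cells moved with the same comparison. The 4 motor neuron markers had 0 past the threshold and a median log2 change of -0.13, with summed levels of 1897 to 2320 in G37R and 2122 to 2496 in control libraries. All 6 tested microglial markers rose (8 listed, summed level 22.8 to 55.8 in G37R and 7.27 to 11.5 in control). Of these, Aif1 and Fcer1g reached the level filter only through their G37R values, so they add no support to that count. Their G37R and control means were 1.94 and 0.476 for Aif1, and 2.93 and 0.677 for Fcer1g. Of 7 astrocyte markers 1 rose, Gfap, with sums of 118 to 262 in G37R and 55.5 to 91.6 in control. Among 7 oligodendrocyte markers 1 rose, Cldn11, with sums of 575 to 998 in G37R and 455 to 508 in control, and among 6 interneuron markers 2 rose, Gad2 and Pax2, with sums of 77.1 to 140 in G37R and 58.0 to 74.6 in control. None of the 4 endothelial or 2 Schwann cell markers reached the level filter, with sums of at most 0.349 and 0.650 in G37R libraries, and 0 of 2 ependymal markers tested passed. G37R libraries 3 and 4 had the highest sums for all 4 of the lists that rose and the lowest for motor neuron markers. The part of these transcripts in the falls was not tested. Without both libraries the log2 changes were -0.51 for Lhx4, -0.24 for Lhx3, -0.19 for Mnx1 and -0.16 for Isl2, with adjusted p from 0.0771 to 0.249. In a purified bulk sample, fewer cells that express a gene and less RNA per cell cannot be told apart.

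**Figure D3:**
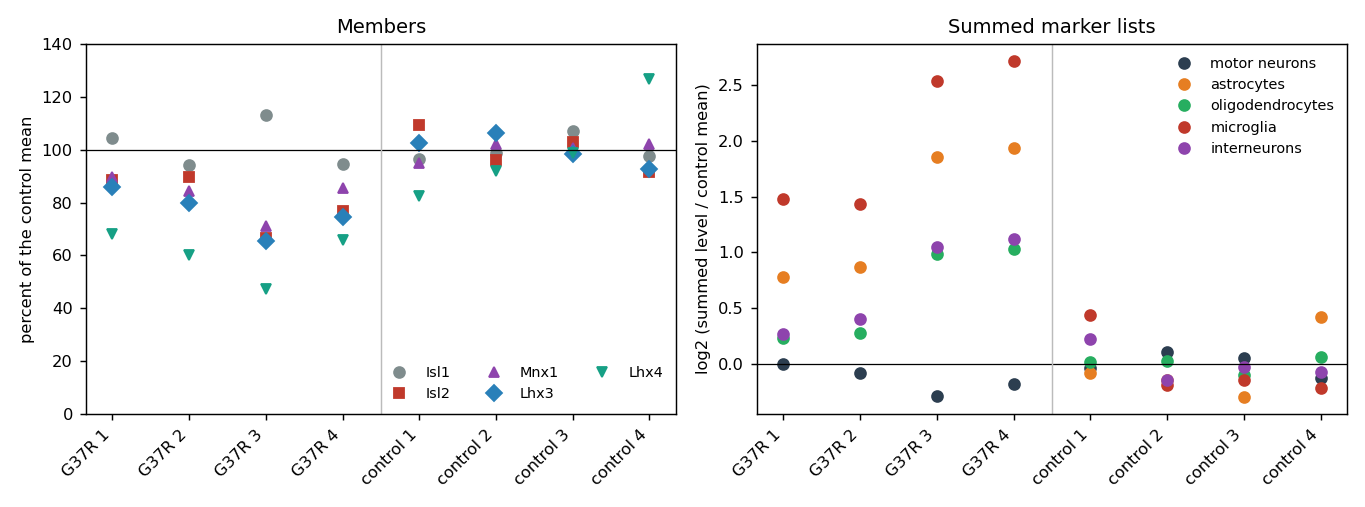
Left, each gene in each motor neuron library as a percent of its control mean (y axis from 0); right, log2 of the summed level of a marker list over its control mean, G37R libraries left of control libraries in both panels. G37R library 3 is lowest for Isl2, Mnx1, Lhx3 and Lhx4 and highest for Isl1, and G37R libraries 3 and 4 have the highest sums for astrocyte, oligodendrocyte, microglial and interneuron markers.

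Of 10 genes for cofactors that bind LIM domains or their complexes 0 passed the threshold (limma, adjusted p), with a median log2 change of 0.034. Ldb1, the bridge of the Isl1 and Lhx3 complex, was at 34.5 ± 1.35 in G37R and 33.6 ± 0.469 in control. The cofactor gene Lmo4 was at 77.9 ± 4.15 in G37R and 83.0 ± 0.878 in control. Lmo2 was at 15.4 ± 1.70 in G37R and 12.7 ± 0.836 in control (log2 change 0.26, adjusted p = 0.0509), and Ssbp2 at 19.0 ± 0.777 in G37R and 21.4 ± 0.673 in control (-0.17, adjusted p = 0.0579), just short of the threshold on opposite sides. Of 8 other LIM homeobox genes only Lhx5 reached the filter, at 1.44 ± 0.183 in G37R and 1.15 ± 0.137 in control, and it did not pass.

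The cholinergic genes, which include targets of the Isl1 and Lhx3 complex, had 0 of 4 past the threshold and a median log2 change of -0.17. Chat, Slc18a3 and Slc5a7 are also among the motor neuron markers above, so these lists share genes. Chat, the acetylcholine synthesis enzyme, was at 112.6 ± 11.4 in G37R and 125.8 ± 4.84 in control (adjusted p = 0.134). Slc18a3, the vesicular acetylcholine transporter, was at 1146 ± 152 in G37R and 1291 ± 120 in control (adjusted p = 0.234). Of 9 other motor neuron genes 1 rose and 1 fell: Calca, the peptide CGRP gene, with 909 ± 73.6 in G37R and 584 ± 85.7 in control, and Chodl, a marker of fast motor neurons, with 135 ± 21.8 in G37R and 186 ± 11.9 in control (-0.46, adjusted p = 0.0260).

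Among the other developmental factors listed, some rose and 0 fell. Of 6 tested motor neuron subtype factors (11 listed) 2 rose, Ebf3 with a log2 change of 0.44 (adjusted p = 0.0323) and Etv4, an ETS factor of motor pools, with 0.39 (adjusted p = 0.0200). The progenitor domain factors had 1 of 4 tested (8 listed) past the threshold, Olig1, a gene also of oligodendrocytes, at 31.2 ± 7.07 in G37R and 19.7 ± 1.76 in control. Spinal interneuron factors rose in 3 of 5 tested (11 listed): En1 of V1 interneurons to 2.50 ± 0.525 in G37R, against 0.685 ± 0.142 in control, Lbx1 to 2.52 ± 0.793 in G37R, against 1.51 ± 0.159 in control, and Pax2 to 2.96 ± 0.454 in G37R, against 1.98 ± 0.352 in control. En1 reached the level filter only through its G37R values, so it adds no support to the count of interneuron factors. The rise of interneuron factors moved with the interneuron marker sums given above, whose part was not tested. Pax2 is in both of these lists.

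Within the 8 motor neuron libraries Isl1 varied apart from the other 4 genes, with Pearson's r of -0.39 to -0.28 to each, while those 4 correlated with each other at 0.68 to 0.93. These points share a table and the G37R and control contrast. Taken as deviations from the group means, Lhx4 had an r of 0.094 to Isl2, 0.15 to Lhx3 and 0.76 to Mnx1, and Isl2 and Lhx3 had 0.84. Over the 13 group means the genes most like Isl1 included Clec18a and Wnt10a, and those most like Mnx1 were Wnt10a, Spink8 and Serinc2, at r of 0.996 to 0.999. Those most like Isl2 included Fam131c and Lhx3, and Lhx3 was most like Mnx1, Gm5868 and Il2ra, at r of 0.996 to 0.997. Lhx4 was most like Sgms2, Rnf39 and L3mbtl4, at r of 0.992 to 0.997. It had an r of 0.88 to 0.90 with the other members, against 0.993 to 0.997 among those. Such values rest on the 2 motor neuron groups, and 5 to 51 genes had an r above 0.99 with a member.

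In whole spinal cord at 8 months, 0 of the 4 members tested passed limma's threshold, against 2.17% of all genes tested, and 1 of the 4, Lhx4, had an unadjusted p under 0.05, as did 15.7% of all genes tested. Lhx4 was at 1.95, 1.34, 1.20 and 1.64 in G37R cords, against 2.01, 2.36, 1.90 and 2.31 in control cords. Only G37R library 1 reached into the control range, and the log2 change was -0.32 (SE 0.096, adjusted p = 0.142). Without that library it was -0.39 with an adjusted p of 0.0415, while with each of the other 7 libraries left out it ran from -0.36 to -0.25 with adjusted p of 0.140 to 0.322. Lhx3, under the level filter, was at 0.866, 0.818, 0.937 and 0.664 in G37R cords, against 1.13, 0.916, 1.03 and 1.32 in controls. These overlapped by 1 library on each side, with a log2 change of -0.20 (adjusted p = 0.253) in the fit without the filter.

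Isl2 in the 8-month cord was at 1.72, 1.53, 1.36 and 1.40 in G37R, against 1.51, 1.71, 1.57 and 2.39 in control (log2 change -0.15, SE 0.099, adjusted p = 0.514). Isl1 was at 1.31, 1.26, 1.04 and 1.41 in G37R, against 1.56, 1.08, 1.27 and 1.51 in control (-0.063, SE 0.084, adjusted p = 0.761). Mnx1 was at 1.92, 1.91, 1.39 and 1.96 in G37R, against 1.61, 1.66, 1.79 and 2.33 in control (-0.025, SE 0.098, adjusted p = 0.932). The groups overlapped for these 3 genes. Microglial markers rose in the same libraries, 5 of 8, with sums of 540 to 862 in G37R and 305 to 378 in control, while motor neuron markers summed to 132 to 197 in G37R and 122 to 196 in control. The part of the added glial RNA in the cord values was not tested.

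At 11 months, 0 of the 4 members tested in spinal cord passed limma's threshold, against 0.0217% of all genes tested, and 0 had an unadjusted p under 0.05, against 5.36% of all genes tested. Mnx1 was at 1.79, 1.83 and 1.63 in G37R cords, against 1.58, 1.62 and 1.03 in control cords. The groups did not overlap, by a narrow margin, as for 4.6% of genes in that direction, and the log2 change was 0.20 (SE 0.12, n = 3 and 3, adjusted p = 0.892). With each library left out the change of Mnx1 ran from 0.079, without control library 3, to 0.26. Lhx4 was at 1.05, 1.03 and 1.04 in G37R, against 0.913, 1.61 and 1.44 in control (-0.17, SE 0.13, adjusted p = 0.905). Control library 1 was the lowest of the 6 for Lhx4, so the groups overlapped.

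Isl2 in the 11-month cord was at 1.31, 1.63 and 1.28 in G37R, against 0.803, 1.58 and 1.49 in control (0.087, SE 0.16, adjusted p = 0.968), and Isl1 at 1.17, 0.937 and 0.830 in G37R, against 0.906, 1.20 and 1.09 in control (-0.064, SE 0.11, adjusted p = 0.968). Lhx3, again under the filter, was at 0.782, 1.36 and 0.725 in G37R, against 0.570, 1.19 and 0.734 in control. All 3 overlapped between the groups. Sex, mixed in both groups, left the log2 changes as they were when added to the fit, and each sex had too few samples for values of its own.

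**Figure D4:**
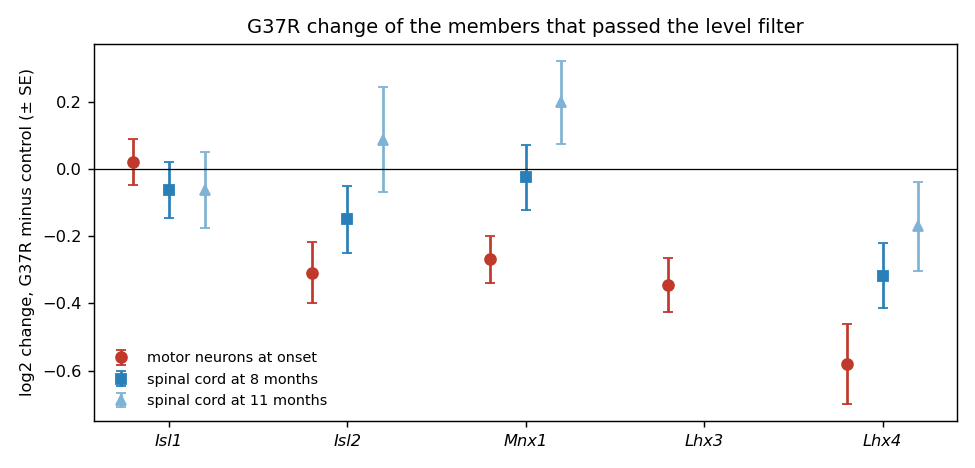
Log2 change of G37R minus control, on log2(level + 1), with its SE, in motor neurons at onset and in spinal cord at 8 and 11 months (circles, squares and triangles). The added 1 shrinks changes more at the lower spinal cord levels. In motor neurons Lhx4, Lhx3, Isl2 and Mnx1 lie below 0 by more than 3 SE and Isl1 lies at 0.021, while in spinal cord 0 values passed the threshold; Lhx3 was under the level filter there.

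The G37R effect was also compared between motor neurons and whole cord directly. The 1 added before the log shrinks a change more at the lower levels of the cord. As a percent of the control mean, G37R Isl2 stood at 80.4% in motor neurons and 83.8% in 8-month cord. In the same order Lhx4 stood at 60.3% and 71.6%, Lhx3 at 76.5% and 74.7%, Mnx1 at 82.7% and 97.2%, and Isl1 at 102% and 92.4%. For motor neurons minus 8-month cord the difference of log2 changes was -0.26 for Lhx4 (SE 0.16, adjusted p = 0.302), -0.24 for Mnx1 (SE 0.12, adjusted p = 0.205), -0.16 for Isl2 (SE 0.14, adjusted p = 0.486) and 0.083 for Isl1 (SE 0.11, adjusted p = 0.648). None of the 4 passed limma's threshold and 0 had an unadjusted p under 0.05, while 7.08% of 11968 genes passed and 27.2% had such a p. With each library left out in turn 0 of the 4 passed. Isl2 then ran from -0.26 without control cord library 4 to -0.076 without G37R motor neuron library 3, and was at -0.097 with a pseudocount of 0.1. Lhx4 ran from -0.33 to -0.16, with -0.16 without control motor neuron library 4, Mnx1 from -0.32 to -0.18, and Isl1 from 0.033 without G37R motor neuron library 3 to 0.14 without control cord library 2. For motor neurons minus 11-month cord, a comparison added after the data were seen, the difference was -0.47 for Mnx1 (SE 0.13, adjusted p = 0.132). Here 0 of 4 passed, 3 had an unadjusted p under 0.05 (Mnx1, Isl2 and Lhx4) as did 18.6% of all genes, and 0.0167% of genes passed. For 11-month minus 8-month cord, added likewise, 0 of 4 passed, 0 had an unadjusted p under 0.05 against 6.42% of all genes, and 0% of genes passed. A change in motor neurons that differs from that in the cord is thus not shown for any of the 4 members compared. Lhx3, under the level filter in the cord, was not compared.

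In astrocytes and oligodendrocytes no member reached the mean level of 1 needed for the test, so 0 of 5 could be called, while limma called 2.34% of the genes tested in astrocytes, 0.109% in 8-month oligodendrocytes, 49% in 11-month G37R and 0.00852% in 11-month G85R oligodendrocytes. In fits without that filter the lowest unadjusted p was 0.184 in astrocytes (Lhx4), 0.035 in 8-month oligodendrocytes (Isl1) and 0.0744 in G85R oligodendrocytes (Mnx1), with lowest adjusted p of 0.561, 0.478 and 0.228.

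Isl2 in 11-month oligodendrocytes was at 0.812, 0.704 and 1.10 in G37R libraries and at 0.621, 0.366 and 0.599 in G85R libraries, against 0.577, 0.480, 0.149, 0.489 and 0.603 in controls. All G37R libraries lay above all controls, while G85R overlapped with controls. Among genes that reached the level filter, which Isl2 did not, 24% had all G37R libraries above all controls. In the fit without the filter the log2 change in G37R was 0.36 (SE 0.12, n = 3 and 5, adjusted p = 0.0340), and 37.1% of all genes passed in that fit. Motor neuron markers rose in the same comparison, 4 of 4, with sums of 82.3 to 112 in G37R and 55.7 to 70.6 in control. Microglial markers rose too, 6 of 8, with sums of 113 to 253 in G37R and 36.0 to 56.7 in control, and so did 5 of 6 interneuron markers, with sums of 199 to 305 in G37R and 122 to 195 in control. Of astrocyte markers 2 of 7 rose, with sums of 524.5 to 893 in G37R and 181 to 292 in control, and of oligodendrocyte markers 3 of 7 fell, with sums of 21320 to 28900 in G37R and 15750 to 38410 in control. These marker counts come from the fit with the level filter, where 49% of all genes passed in either direction. The part of these cells in the Isl2 value was not tested. The other 4 members had adjusted p of 0.412 to 0.928 in the fit without the filter.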

How the data were processed

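Polyadenylated RNA of 52 mouse libraries was read as 50 nt single ends, per the labels' protocols. TopHat2 2.0.8b, Cufflinks, Cuffdiff and mm9 are named in the submitters' processing notes, without their roles. The authors deposited 6 tables of 23697 genes. The deposited 11-month spinal cord values are FPKM. The other 5 deposited tables hold a signal about 16774 times as high (8-month over 11-month spinal cord, median of 13810 genes, quartiles 15209 and 18442), for a reason the sources used here do not give. Values were divided by that factor and called FPKM-equivalents. For purified cells the factor is an assumption, and the design had assumed FPKM throughout. Depth is unknown.

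Groups come from the labels. Within each table log2(value + 1), for genes with a mean of at least 1, was tested with limma 3.58.1 in R 4.3.3 (trend and robust variances, 2-sided, Benjamini-Hochberg over all genes tested, threshold 0.05), checked on simulated data. The 11-month oligodendrocyte groups share 1 fit and its controls. Differences of effects were contrasts of both tables in 1 fit. The 5 members and the gene lists were chosen with earlier results of these data known. Named genes are the members and up to 4 of each list, those past the threshold with the largest change and then those with the highest level. Ldb1, Lmo2, Ssbp2, Aif1 and Fcer1g are outside that rule and were chosen after their values were seen. A few genes that the rule names are not reported here. Alternatives were the pseudocount, the level filter, scaling, the variance model, library weights, a replicate block, sex and leaving out libraries. Promoters are RefSeq windows on GRCm38.p6, matched by symbol for 5 of 5 members, and transcript comparisons used the GRCm38 annotation.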

Additional observations from a re-analysis of the deposited data

Results flagged for a closer look

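Of 45 sets of values, the 5 genes in each of 9 groups of 4 to 6 libraries, 5 had a library that stood far from the rest by Dixon's 95% limit, which by its definition about 1 in 20 pass by chance. In 11-month control oligodendrocytes library 4 was low for Isl1 at 0.125 and high for Mnx1 at 0.705, and library 3 was low for Isl2 at 0.149. In 8-month G37R oligodendrocytes library 1 was high for Lhx3 at 0.597. These 4 values lie under the level needed for the test. In 8-month G37R spinal cord library 3 was low for Mnx1 at 1.39, and without it the log2 change of Mnx1 turned to 0.048. Of 12 differences between effects tested, 0 passed the threshold.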

How the results depend on the processing

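Of the 5 genes 4 passed in motor neurons at onset. The count was 2 without a level filter (Lhx3 and Lhx4), 2 without trend and robust variances (Lhx3 and Lhx4), 0 without G37R libraries 3 and 4 together, and 0 to 4 with each library left out in turn (0 without control 2 or 3, 1 without G37R 3 or 4, 2 without control 4). Of all genes 2.23% and 2.78% passed without control 2 and without control 3. With the replicate number as a block the count was 2 (Lhx3 and Lhx4, adjusted p = 0.0419 and 0.0331) and 810 of all genes passed, against 1582. Same-numbered libraries share only a number: their deviations correlated at -0.112 to 0.0744 in motor neurons, other pairs at -0.0652 to 0.12, and in no table was every pair over 0.1. Of 17 alternatives, Lhx4 passed in 14, Lhx3 in 12, Mnx1 in 8, Isl2 in 4 and Isl1 in 0, with Lhx4 at -0.71 to -0.48 on the log2 scale. The Isl1 change turned to -0.0158 with library weights, to -0.0074 without G37R 3 and 4, and ran from -0.0292 to 0.0532 with each library left out. In 11-month G37R oligodendrocytes 1 gene, Isl2, passed without a filter and 1 with a mean of at least 0.1, where 37.1% and 43.9% of all genes passed. In 8-month cord 0 to 1 passed with each library left out, and Mnx1 ran from -0.0645 to 0.0529. In 11-month cord Isl2 turned to -0.0386 with library weights and ran from -0.0764 to 0.1818. The causes were not tested. The number of reads per library is unknown, so how far low levels limit the glial and cord values is not known.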
